A study of Mus musculus with 4 samples.

Results

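The 28 genes described here encode cholesterol synthesis enzymes and the proteins that sense, move and export sterols. They were taken by symbol from the deposited gene tables. All 28 were listed in both tables, once in each, among 21767 genes in either table, and all 28 passed the expression filter of the test. Of them, 18 encode enzymes of the synthesis pathway and 10 encode regulators, transporters and nuclear receptors.

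Libraries were made from RNA of dissected cerebral cortex, taken from C57BL/6 mice at embryonic day 15. One group was labelled Prdm16cKO, a conditional knockout of the transcriptional regulator gene Prdm16, and the control group Prdm16fl/fl, whose mice carry the floxed Prdm16 alleles. The labels name neither the Cre driver nor the deleted exon, and the word Blood in 1 sample title of each group has no explanation. The tables held 2 libraries of the knockout group, called cKO 1 and cKO 2 here, and 1 of the control group, called floxed, where the labels list 2 samples per group. Errors are therefore the SD of the 2 cKO libraries, and no error can be given for floxed. Nothing in the labels says that the libraries came from separate embryos, so the spread may be technical.

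Cells make cholesterol from acetyl-CoA through mevalonate, farnesyl pyrophosphate, squalene and lanosterol. The developing brain makes its own, because little cholesterol crosses the blood-brain barrier. SREBP transcription factors drive the enzyme genes together when sterols in the endoplasmic reticulum fall. The liver X receptors (LXR) answer to oxysterols and drive the genes of sterol export.

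Promoters of a few members are shown because control of such genes by sterols acts mainly in the window before the start site. RefSeq promoters (GRCm38.p6), each running from 250 bases before to 50 bases after a start site, were found for 23 of the 28 members. Abcg1, Fdft1, Fdps, Sqle and Stard4 had no entry. The sterol regulatory element was searched as TCACNCCAC and the NF-Y box as CCAAT, on both strands, and capitals mark matches to either. The enzyme genes Hmgcs1, Idi1, Mvk and Ebp are shown with the efflux gene Abca1, which had matches to neither.

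Hmgcs1, chr13:119690101-119690400, plus strand: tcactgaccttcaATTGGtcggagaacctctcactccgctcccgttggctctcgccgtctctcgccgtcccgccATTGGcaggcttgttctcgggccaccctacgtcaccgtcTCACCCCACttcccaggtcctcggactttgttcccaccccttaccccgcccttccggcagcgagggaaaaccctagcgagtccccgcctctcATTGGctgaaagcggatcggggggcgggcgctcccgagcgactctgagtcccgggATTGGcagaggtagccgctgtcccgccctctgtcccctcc
Idi1, chr13:8885356-8885655, plus strand: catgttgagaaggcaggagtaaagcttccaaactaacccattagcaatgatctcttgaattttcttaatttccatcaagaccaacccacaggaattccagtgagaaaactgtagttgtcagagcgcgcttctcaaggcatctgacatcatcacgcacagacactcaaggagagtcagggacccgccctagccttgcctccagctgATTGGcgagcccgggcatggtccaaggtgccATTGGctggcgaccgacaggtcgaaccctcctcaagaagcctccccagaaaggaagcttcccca
Mvk, chr5:114444019-114444318, plus strand: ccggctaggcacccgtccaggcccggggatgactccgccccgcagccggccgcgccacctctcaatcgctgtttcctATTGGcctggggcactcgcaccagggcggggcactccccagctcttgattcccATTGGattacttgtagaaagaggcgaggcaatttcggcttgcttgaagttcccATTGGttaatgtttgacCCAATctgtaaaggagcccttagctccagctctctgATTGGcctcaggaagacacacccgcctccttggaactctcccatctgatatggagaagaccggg
Ebp, chrX:8193463-8193762, minus strand: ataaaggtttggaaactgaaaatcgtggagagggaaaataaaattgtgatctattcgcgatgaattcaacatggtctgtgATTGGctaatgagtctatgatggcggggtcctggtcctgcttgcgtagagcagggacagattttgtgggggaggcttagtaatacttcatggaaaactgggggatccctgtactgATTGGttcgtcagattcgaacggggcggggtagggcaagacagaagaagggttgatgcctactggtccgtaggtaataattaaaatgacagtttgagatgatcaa
Abca1, chr4:53159846-53160145, minus strand: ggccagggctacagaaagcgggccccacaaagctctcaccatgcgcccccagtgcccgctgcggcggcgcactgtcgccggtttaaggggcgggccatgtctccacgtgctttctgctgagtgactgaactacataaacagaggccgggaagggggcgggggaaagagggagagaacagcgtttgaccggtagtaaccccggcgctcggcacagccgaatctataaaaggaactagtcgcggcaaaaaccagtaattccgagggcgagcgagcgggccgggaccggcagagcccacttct

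A CCAAT match stood in at least 1 promoter of 14 of the 15 synthesis genes with an entry, the exception being Acat2, and of 4 of the 8 other members. Among genes tested here that had an entry, 42.3% held one, and 37.4% of all 32851 promoters did. Mvk had 5 matches in its window, Hmgcs1 4 and Idi1 and Ebp 2 each. The element TCACNCCAC matched Hmgcs1 alone, 137 bases before the start site as TCACCCCAC, against 1.46% of the tested genes. The E-box CACGTG was found in 3 of the 15 synthesis genes and 3 of the 8 others, against 11.1% of the tested genes. The GC box GGGCGG was found in 14 and 6, against 66.9%. No match of the sterol element overlapped a match of the other motifs. A match says only that these letters occur in the window. The lack of a match says only that the exact word is absent there, since sites that vary from it were not searched.

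The libraries stood apart in their content of other cell types. Library totals lay between 17841685 counts (floxed) and 19518174 (cKO 1), with 18581791 for cKO 2, and levels are CPM values, each count scaled to its library's total. Prdm16, the targeted gene, had 34.6 CPM in cKO 1, 24.1 in cKO 2 and 30.2 in floxed (edgeR log2 difference -0.04, SE 0.24, adjusted p = 1), so the groups were not separated by it. With the deleted exon not named, this total checks them only in part. All 10 cortical markers were detected, with a summed level between 3287 and 3485 CPM. Meningeal and fibroblast markers (12 of 12 detected) summed to 1347 CPM in cKO 1, 98.5 in cKO 2 and 862 in floxed. Endothelial markers summed to 410, 196 and 345 CPM, and microglia and macrophage markers to 154, 45.9 and 111 CPM. Choroid plexus markers summed to 1109, 335 and 1118 CPM, and pericyte markers to 190, 92.0 and 160 CPM, with 1 of 8, Tagln, at 0 in cKO 2. Erythroid markers, 11 of 12 listed in both tables, summed to 1608, 1297 and 1760 CPM. Among them the globin genes Hba-a1 (426, 363 and 587 CPM) and Hbb-bt (128, 121 and 82.4 CPM) stood apart from floxed in opposite directions, and neither passed (edgeR adjusted p = 1). Radial glia markers summed to 2784, 2689 and 2058 CPM and neuronal markers to 6305, 6656 and 6461 CPM. In bulk tissue, fewer cells of a type and less RNA per cell cannot be told apart.

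The summed level of the cholesterol synthesis genes was 1458 CPM in cKO 1, 1485 in cKO 2 and 1490 in floxed, a sum set mostly by its abundant members. Singly, 16 of the 18 lay less than 25% above and less than 20% below floxed in both cKO libraries, and Fdps and Ebp did not. Of 16725 genes tested, 12311 lay within these limits in cKO 1 and 11232 in cKO 2. Among the 10149 genes of at least 10 CPM, 9223 and 8796 did, so most genes of that level stayed within them. The share within them in both libraries was not counted. No member passed the test between the groups: with edgeR's quasi-likelihood test, 0 of the 28 had an adjusted p (Benjamini-Hochberg, all genes) under 0.05 and 0 an unadjusted p under 0.05, and DESeq2 also called 0. Over all 16725 genes tested edgeR called 1, or 0.00598%, and 256 had an unadjusted p under 0.05. The smallest unadjusted p of a member was 0.144, for Fdps, and all 28 adjusted p-values were 1. A missed threshold does not show equal levels, so the width of the intervals matters. The edgeR 95% interval of the cKO to floxed difference lay within 1.5-fold either way for 15 of the 18 synthesis genes, and within 2-fold for 17. Of all 28 members, 21 and 25 had intervals that narrow, all of them among the 26 members of at least 10 CPM. Of the 10149 genes of that level, 6565 and 9675 did. The share of these 26 within 2-fold is close to that of all genes of at least 10 CPM, and their share within 1.5-fold lies above it. Those genes were not matched to the members by level, and low counts widen an interval, so no conclusion is drawn from the shares. The intervals rest on 1 residual degree of freedom, from the cKO libraries, and 6.73 prior degrees of freedom, from the spread pooled over all genes, and take the same spread for floxed.

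**Figure D1:**
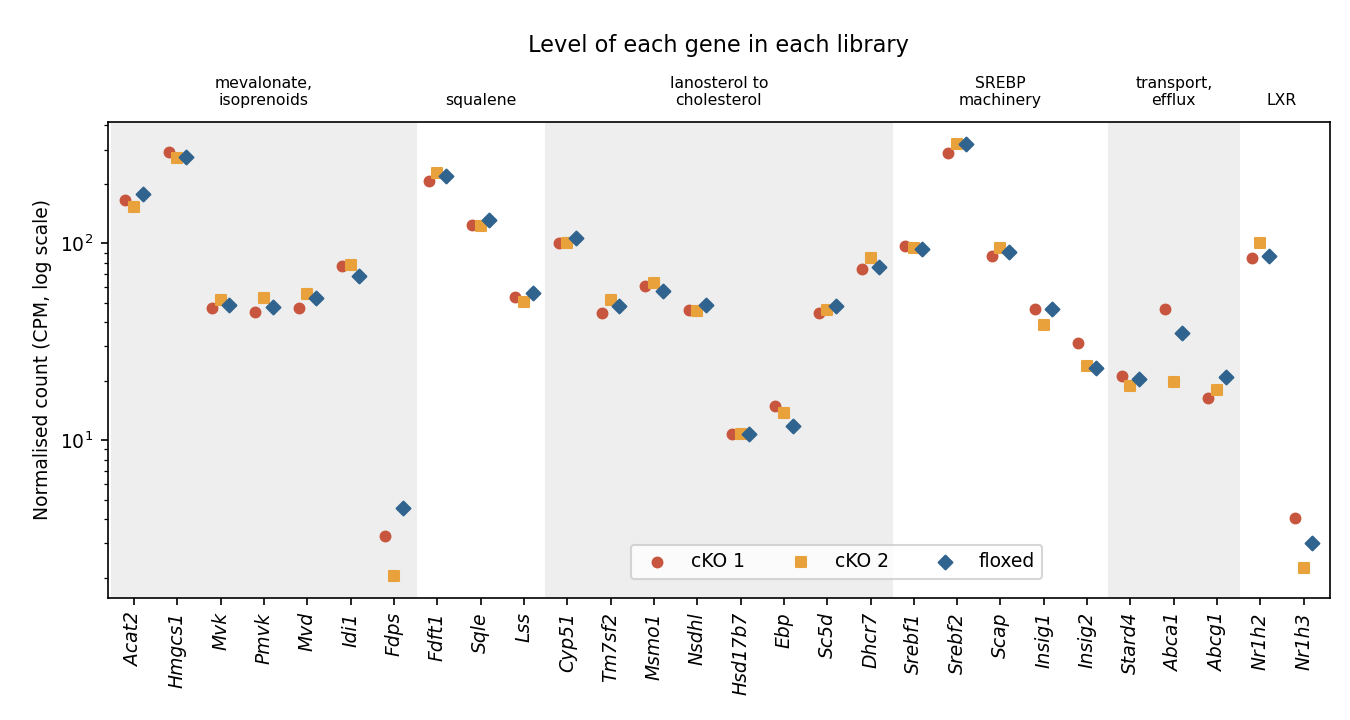
Normalised count (CPM, log scale) of each of the 28 genes in the 2 cKO libraries and the floxed library, grouped by role, with 1 point per library. The points of most enzyme genes nearly coincide, while Fdps, Abca1 and Nr1h3 are spread out.

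Per kilobase of exon, the members covered a wide range of levels. Acat2 stood at the top with a mean of 65.3 CPM per kb over the libraries, followed by Hmgcs1 at 60.8, Fdft1 at 51.8 and Srebf2 at 43.1. The libraries of Acat2 ran from 60.5 to 69.8 CPM per kb and those of Hmgcs1 from 59.4 to 63.4, so the order of these neighbours is within their spread. At the low end were Fdps at 0.781, Nr1h3 at 1.24, Hsd17b7 at 2.12 and Abcg1 at 2.53 CPM per kb. The level of Fdps is uncertain, as 26.7% of its exon bases are shared with Gm43738 on the same strand. Exon lengths are the union over GENCODE M21 transcripts, which can exceed the transcript in use.

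The first steps join acetyl groups and carry them to mevalonate and its phosphates. Acat2, a cytosolic thiolase that makes acetoacetyl-CoA, had 167 CPM in cKO 1, 154 in cKO 2 and 178 in floxed. Both cKO libraries lay below floxed, by 0.09 and 0.21 on the log2 scale, and the fitted difference was -0.15 (SE 0.13, edgeR adjusted p = 1). Acat2 shares 39.1% of its 50-base words with its near copy Acat3, which had at most 16 counts in a library, so the split of reads between them is uncertain. Hmgcs1, the HMG-CoA synthase of this pathway, had 291, 273 and 274 CPM. The counting interval of its cKO 2 ratio to floxed (0.958 to 1.04) held 1. That of its cKO 1 ratio of 1.06 (1.02 to 1.10) did not. In GENCODE M21, 12.1% of the Hmgcs1 exon bases overlap an antisense gene, and without strand their reads cannot be told apart.

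The kinases and the decarboxylase that follow were slightly low in cKO 1 and slightly high in cKO 2. Mevalonate kinase, Mvk, had 47.0 CPM in cKO 1, 51.9 in cKO 2 and 49.0 in floxed. Phosphomevalonate kinase, Pmvk, had 45.0, 52.7 and 47.6 CPM, and the decarboxylase gene Mvd 47.1, 55.3 and 52.6 CPM. For each of these genes floxed lay between the cKO libraries. The counting interval of the ratio to floxed held 1 for Mvk in both cKO libraries (0.873 to 1.05 and 0.965 to 1.16). It also held 1 for Pmvk in cKO 1 (0.860 to 1.04) and Mvd in cKO 2 (0.961 to 1.15). It excluded 1 for Pmvk in cKO 2 (1.01 to 1.22) and Mvd in cKO 1 (0.816 to 0.981). Their fitted log2 differences were 0.01 (SE 0.15), 0.04 (SE 0.16) and -0.04 (SE 0.16).

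Idi1, which interconverts the isopentenyl and dimethylallyl units, was the enzyme gene of this stage with both cKO libraries above floxed. Its level was 76.5 CPM in cKO 1, 78.1 in cKO 2 and 68.3 in floxed. The cKO mean was 77.3 ± 1.17 CPM (SD, n = 2). The ratio to floxed was 1.12 (exact 95% counting interval 1.04 to 1.21) and 1.14 (1.06 to 1.24). The gene lies on GRCm38 chromosome 13, 8885501 to 8892451, plus strand. Of its 50-base words 25.3% also occur in other genes, led by the near copy Gm13502, which had at most 11 counts in a library. The group difference did not pass (log2 0.18, SE 0.14, edgeR 95% interval -0.15 to 0.51, adjusted p = 1).

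Fdps, the farnesyl pyrophosphate synthase gene, was the enzyme gene whose values differed most. It had 3.28 CPM (64 counts) in cKO 1, 2.05 CPM (38 counts) in cKO 2 and 4.54 CPM (81 counts) in floxed. Both cKO libraries were below floxed, with ratios of 0.722 (0.512 to 1.01) and 0.450 (0.298 to 0.670), and the cKO libraries themselves differed by 1.60-fold (1.06 to 2.46). In the authors' deposited table, whose test compares 1 library with another and not the conditions, Fdps had a log2 fold of -0.47 with an adjusted p of 0.118 in cKO 1 and of -1.15 with an adjusted p of 0.000147 in cKO 2. The fitted log2 difference was -0.77 (SE 0.47, edgeR 95% interval -1.86 to 0.33, adjusted p = 1). Fdps (chromosome 3, 89093588 to 89101959, minus strand) shares 26.7% of its exon bases with Gm43738 on the same strand. Of its 50-base words, 26.2% also occur in transcripts of 8 other genes, led by Gm43738, Gm3571 and Gm5873. Reads shared with these genes may have been left out or split, so the level of Fdps is uncertain, and the part of this in its low count was not tested.

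From farnesyl units to lanosterol, every log2 ratio of the 3 genes to floxed lay between -0.15 and 0.06. Fdft1, the squalene synthase gene, had 207 CPM in cKO 1, 229 in cKO 2 and 221 in floxed. Sqle, the squalene epoxidase and a rate-limiting step, had 124, 122 and 132 CPM, or 123 ± 0.917 CPM (SD, n = 2) in cKO, and Lss, which closes the ring to lanosterol, 53.3, 50.5 and 56.0 CPM. Sqle and Lss lay below floxed in both cKO libraries, by fitted log2 differences of -0.10 (SE 0.13) and -0.11 (SE 0.14), which did not pass (edgeR adjusted p = 1). Fdft1 shares 18.3% of its exon bases with Ctsb on the opposite strand, and Ctsb had 265, 233 and 262 CPM.

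The later enzymes demethylate lanosterol and move its double bonds. Cyp51, the lanosterol 14-alpha-demethylase gene, had 101 CPM in each cKO library and 107 in floxed. Tm7sf2, a sterol C14 reductase, had 44.3 CPM in cKO 1, 51.7 in cKO 2 and 48.4 in floxed. Msmo1, which oxidises the C4 methyl groups, had 60.8, 62.9 and 57.6 CPM. Nsdhl, a dehydrogenase of the same C4 complex, had 45.9, 45.3 and 48.8 CPM, and its partner reductase gene Hsd17b7 had 10.8 CPM in every library. Sc5d, the lathosterol desaturase gene, had 44.2, 46.2 and 48.4 CPM, and Dhcr7, the 7-dehydrocholesterol reductase gene, 74.6, 84.0 and 75.6 CPM. Tm7sf2 shares 12.1% of its exon bases with Vps51 on the same strand. Over these 7 genes the fitted log2 differences ran from -0.10 (Nsdhl and Sc5d) to 0.10 (Msmo1).

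Ebp, the sterol isomerase gene (chromosome X, 8185329 to 8193512, minus strand), had 14.9 CPM in cKO 1, 13.8 in cKO 2 and 11.8 in floxed. It was the synthesis gene with the largest ratio above floxed, 1.26 (1.05 to 1.51) in cKO 1 and 1.17 (0.971 to 1.41) in cKO 2. The cKO libraries lay close together, at 14.4 ± 0.763 CPM (SD, n = 2), and did not overlap floxed. Both cKO libraries were also above floxed for 28.9% of all genes of at least 10 CPM. The fitted log2 difference of 0.28 (SE 0.27, edgeR 95% interval -0.34 to 0.90) did not pass (adjusted p = 1).

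**Figure D2:**
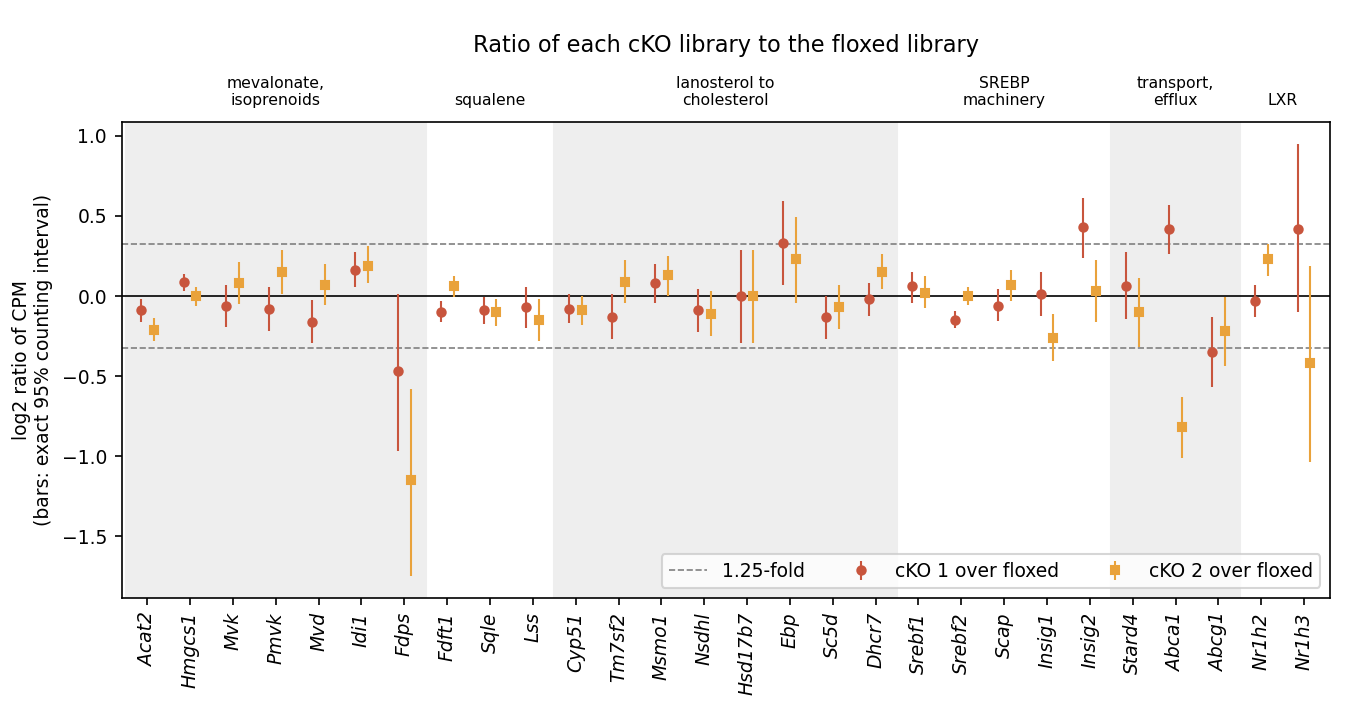
Log2 ratio of each cKO library to the floxed library for the 28 genes, with bars for the exact 95% interval of the counts and dashed lines at the limits of 25% above and 20% below floxed. The enzyme genes other than Fdps and Ebp stay between the dashed lines in both libraries. The comparisons share the floxed library.

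Each cKO library was also set against floxed alone, which allows no test, and a member was called where it lay at least 25% above or 20% below floxed. Both comparisons share the floxed library. In cKO 1, 6 of the 28 members passed, 4 higher (Ebp, Insig2, Abca1 and Nr1h3) and 2 lower (Fdps and Abcg1), where 26.4% of all genes tested passed in either direction. In cKO 2, 3 passed, all lower (Fdps, Abca1 and Nr1h3), where 32.8% passed. Low counts pass a fold more readily, and Fdps and Nr1h3 were the members under 10 CPM in the mean of the libraries. Among the other 26 members 4 passed in cKO 1, against 9.12% of the genes of at least 10 CPM, and 1 in cKO 2, against 13.3%. By direction, 3 were higher in cKO 1 (5.78% of those genes) and 1 lower (3.34%), and in cKO 2 0 were higher (4.92%) and 1 lower (8.41%). Of the 17 synthesis genes of at least 10 CPM, 1 (Ebp) passed in cKO 1 and 0 in cKO 2.

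The median of the enzyme genes lay near that of all genes. Over the 18 synthesis genes the median log2 ratio was -0.08 in cKO 1 and 0.03 in cKO 2, beside 0.01 and -0.04 over all genes tested. Over the 17 of at least 10 CPM it was -0.08 and 0.06, beside 0.00 and -0.01 over all genes of that level. Their interquartile range was -0.09 to -0.00 in cKO 1, where that of all genes of the level was -0.11 to 0.12. In cKO 2 the interquartile ranges were -0.09 to 0.13 and -0.14 to 0.12. Of the 18, both cKO libraries were above floxed for 3 and below it for 8, where 27.7% and 31.8% of all genes tested had such an order. One of the 8 is Hsd17b7, whose values differ only past the printed digits. With at least 10 CPM the counts were 3 and 7 of 17, against 28.9% and 30.7% of genes of that level. Floxed lay within the cKO range for the other 7 synthesis genes.

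**Figure D3:**
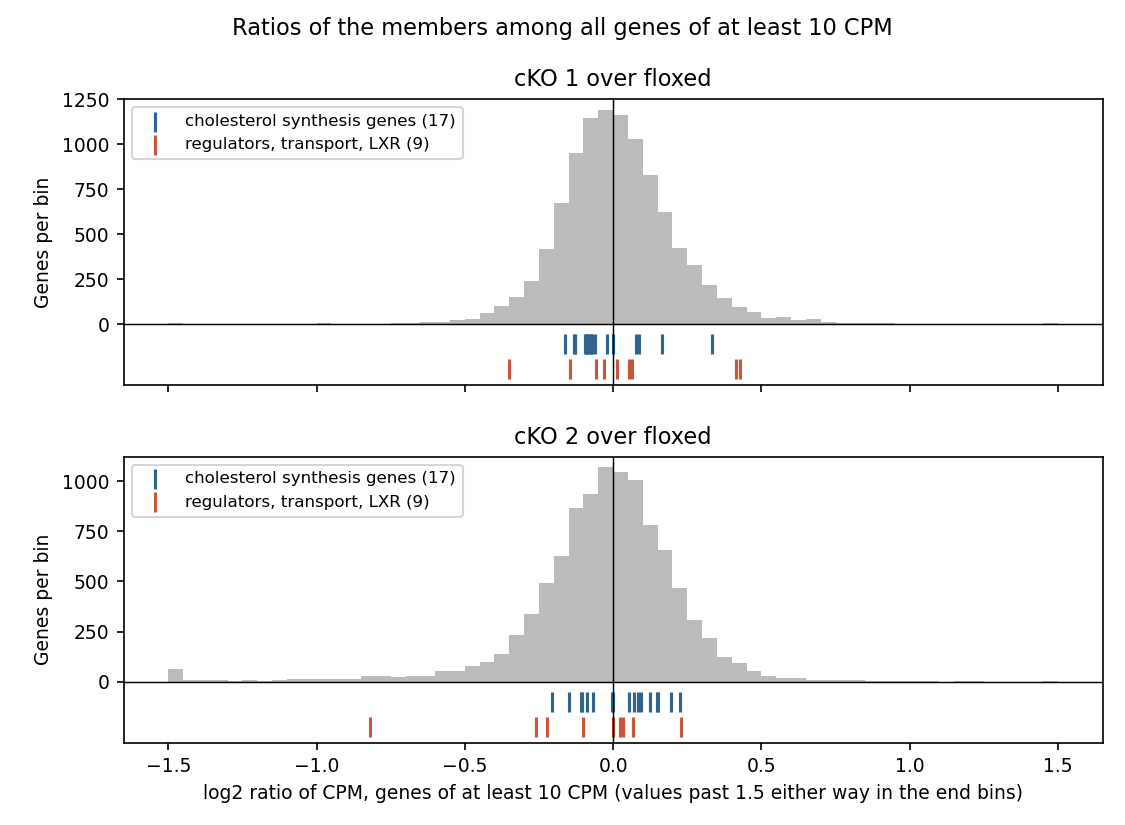
Histograms of the log2 ratio of each cKO library to floxed over the 10149 genes of at least 10 CPM, in bins of equal width with values past 1.5 in the end bins, with ticks below for the 17 synthesis genes and the 9 other members of that level. The synthesis genes lie around 0 in both libraries, and Abca1 is the isolated tick on the left for cKO 2.

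The sterol-sensing genes included 3 close to floxed and the Insig genes, which were not alike in the cKO libraries. Srebf2, the SREBP that chiefly drives cholesterol genes, had 289 CPM in cKO 1, 319 in cKO 2 and 320 in floxed. Srebf1, the SREBP that chiefly drives fatty acid genes, had 97.6, 95.4 and 93.9 CPM, and Scap, the escort that carries SREBPs to the Golgi, 86.9, 94.8 and 90.5 CPM. For these 3 genes every ratio to floxed was between 0.904 and 1.05. In GENCODE M21, 13.2% of the Scap exon bases overlap a gene on the opposite strand.

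The Insig genes encode the anchors that hold SCAP in the endoplasmic reticulum when sterols are plentiful. Insig1, itself an SREBP target, had 46.7 CPM in cKO 1, 38.7 in cKO 2 and 46.3 in floxed, so only cKO 2 departed from floxed (ratio 0.836, 0.755 to 0.925). Insig2 (chromosome 1, 121304353 to 121332589, minus strand) had 31.4 CPM in cKO 1, 23.9 in cKO 2 and 23.4 in floxed. Here cKO 1 was the library apart, with a ratio of 1.34 (1.18 to 1.53), while cKO 2 was at 1.02 (0.892 to 1.17). The cKO libraries differed by 1.31-fold for Insig2 (1.16 to 1.49) and by 1.21-fold for Insig1 (1.09 to 1.33). The fitted log2 differences were 0.24 (SE 0.23) for Insig2 and -0.12 (SE 0.17) for Insig1 (edgeR adjusted p = 1 for both).

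Sterol transport and export held the member that separated the cKO libraries most. Abca1, which loads cholesterol onto apolipoproteins (chromosome 4, 53030787 to 53159895, minus strand), had 46.7 CPM (912 counts) in cKO 1, 19.9 CPM (369 counts) in cKO 2 and 35.0 CPM (625 counts) in floxed, with floxed between the cKO libraries. The ratio to floxed was 1.33 (1.20 to 1.48) in cKO 1 and 0.567 (0.497 to 0.646) in cKO 2, and the cKO libraries differed by 2.35-fold (2.08 to 2.66). The group difference was -0.07 on the log2 scale with an interval of -1.03 to 0.88 (edgeR adjusted p = 1). The authors' deposited tables gave log2 folds of 0.42 (adjusted p = 4.1e-07) and -0.82 (adjusted p = 3.92e-17), again in opposite directions. Among the other members the authors' deposited tables gave the smallest adjusted p-values to Acat2 in cKO 2 (2.38e-07), Srebf2 in cKO 1 (1.23e-06), Insig2 in cKO 1 (3.17e-05) and Nr1h2 in cKO 2 (2.39e-05).

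Abcg1, the exporter that passes sterols to lipoprotein particles (chromosome 17, 31057698 to 31115777, plus strand), had 16.4 CPM in cKO 1, 18.0 in cKO 2 and 21.0 in floxed. Unlike Abca1 its cKO libraries lay together, at 17.2 ± 1.08 CPM (SD, n = 2), below floxed. Both cKO libraries were also below floxed for 30.7% of all genes of at least 10 CPM. The ratios were 0.785 (0.674 to 0.913) and 0.857 (0.738 to 0.996), and the fitted log2 difference was -0.28 (SE 0.23, edgeR 95% interval -0.82 to 0.25, adjusted p = 1). Stard4, a cytosolic carrier of cholesterol, had 21.3, 19.0 and 20.4 CPM, with floxed between the cKO libraries.

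The receptor genes differed from each other in the order of the libraries. Nr1h2, which encodes the widely expressed LXR-beta, had 84.6 CPM in cKO 1, 101 in cKO 2 and 86.4 in floxed, so cKO 2 was the library apart (ratio 1.17, or 0.23 on the log2 scale). Nr1h3, which encodes LXR-alpha, a receptor of liver and macrophages, had 4.05 CPM (79 counts) in cKO 1, 2.26 CPM (42 counts) in cKO 2 and 3.03 CPM (54 counts) in floxed. It had the same order of libraries as Abca1, although both counting intervals to floxed held 1 (0.934 to 1.93 and 0.487 to 1.14). The members Hmgcs1, Insig1 and Stard4 had that order too. The fitted log2 differences were 0.10 (SE 0.16) for Nr1h2 and 0.06 (SE 0.52) for Nr1h3 (edgeR adjusted p = 1 for both).

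Over all members, 4 differed by the same 25% or 20% between the cKO libraries, Fdps, Insig2, Abca1 and Nr1h3, where 33.9% of all genes tested did. At 10 CPM or more these were 2 of 26, against 15.3%. In all 4 cKO 1 was the higher of the cKO libraries, as it was in every marker sum given above except the neuronal one. The share of all genes that differed in this direction was not counted. For Abca1 and Nr1h3 floxed also lay between them, as in the cortical, meningeal, endothelial, pericyte and macrophage sums. Such a place of floxed, with either cKO library the higher, was common: 13 of the 28 members and 6775 of the 16725 genes tested had it. At 10 CPM or more it was 12 of 26 members and 4098 of 10149 genes. Fdps was highest in floxed, and Insig2 was alike in cKO 2 and floxed. Col3a1, a fibrillar collagen gene of the meningeal list, had 215, 6.83 and 136 CPM, and the macrophage receptor gene Csf1r 41.1, 13.4 and 33.1 CPM. No marker of the meningeal, endothelial and macrophage lists was at 0 in any library. The part of these cells in the levels of Abca1, Insig2, Fdps and Nr1h3 was not tested.

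**Figure D4:**
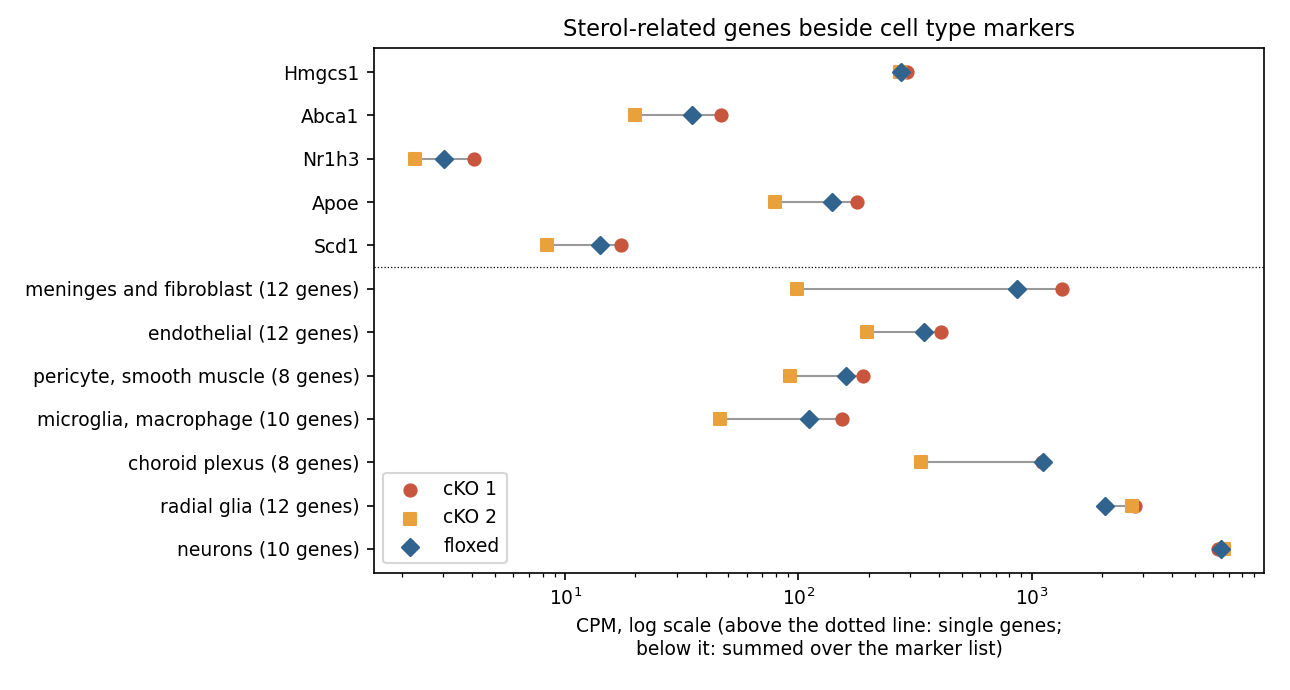
Levels in CPM (log scale) of Hmgcs1, Abca1, Nr1h3, Apoe and Scd1 above the dotted line, chosen after their values were seen, and summed CPM of marker lists below it, with 1 point per library. The order cKO 2, floxed, cKO 1 from low to high holds for Abca1, Nr1h3, Apoe, Scd1 and the meningeal, endothelial, pericyte and macrophage sums. It also holds for Hmgcs1, where cKO 2 (273 CPM) and floxed (274 CPM) nearly coincide. In the choroid plexus row the points of cKO 1 and floxed coincide.

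Genes around the pathway were read from lists chosen by function. Of 12 LXR target genes, which include the members Abca1, Abcg1, Srebf1 and Nr1h3, 6 lay at least 25% above floxed and 1 at least 20% below it in cKO 1, where 15.4% and 10.9% of all genes tested were. In cKO 2, 0 were higher and 5 lower, where 10.6% and 22.2% were. Among genes of at least 10 CPM the shares were 5.78% and 3.34% in cKO 1 and 4.92% and 8.41% in cKO 2. The list holds genes on both sides of that level. Apoe, the main apolipoprotein of brain lipid particles, had 178 CPM in cKO 1, 79.7 in cKO 2 and 139 in floxed, with the order of Abca1. Mylip, a ubiquitin ligase for lipoprotein receptors, had 7.17, 5.11 and 5.60 CPM, and the phosphodiesterase gene Smpdl3a 13.7, 9.90 and 9.92 CPM. The myosin gene Myo1c had 26.0, 19.5 and 24.0 CPM. Mylip, Smpdl3a and Myo1c had the order of Abca1 as well, Smpdl3a with cKO 2 and floxed nearly equal. None of the 12 passed edgeR's test, and the median log2 ratios were 0.24 in cKO 1 and -0.26 in cKO 2.

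Of 16 fatty acid synthesis genes tested, 0 were higher and 0 lower by these limits in cKO 1, where 15.4% and 10.9% of all genes tested were. In cKO 2, 1 was higher and 2 were lower, where 10.6% and 22.2% were, and the median log2 ratios were 0.01 and -0.11. Among genes of at least 10 CPM, the level of most of this list, the shares were 5.78% and 3.34% in cKO 1. In cKO 2 they were 4.92% and 8.41%. Acly, which supplies cytosolic acetyl-CoA, had 301 CPM in cKO 1, 336 in cKO 2 and 285 in floxed, and Acaca, the acetyl-CoA carboxylase gene, 121, 113 and 136 CPM. Acss2, which activates acetate, had a count of 319 in cKO 1, 375 in cKO 2 and 267 in floxed, and cKO 2 was its high library at 20.2 CPM. The desaturase gene Fads1 had 173 CPM in each cKO library and 193 in floxed. Scd1, another desaturase gene, had 17.3, 8.34 and 14.1 CPM, with cKO 2 the low library. No gene of this list passed edgeR's test, and 0 had an unadjusted p under 0.05.

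Of 31 further genes of sterol synthesis, uptake, storage and turnover 28 were tested, and 0 passed edgeR's test. By the same limits 5 were higher and 1 lower in cKO 1 (15.4% and 10.9% of all genes tested), and 1 was higher and 8 lower in cKO 2 (10.6% and 22.2%), with medians of 0.05 and -0.14. The 5 and the 8 are near those shares of all genes, which are lower among genes of at least 10 CPM (5.78% and 8.41%). Gramd1b, which moves cholesterol from the plasma membrane to the endoplasmic reticulum, had 106 CPM in each cKO library, or 106 ± 0.400 CPM (SD, n = 2), and 138 in floxed (fitted log2 difference -0.39, SE 0.13, unadjusted p = 0.0194, edgeR adjusted p = 1). Lrp8, a receptor for apolipoprotein E and reelin, had 203 CPM in cKO 1, 175 in cKO 2 and 253 in floxed (-0.42, SE 0.14, unadjusted p = 0.0196, edgeR adjusted p = 1). These 2 were the genes of the list with an unadjusted p under 0.05. Mbtps1, the protease that makes the first cut of SREBPs in the Golgi, had 121, 102 and 129 CPM. Cyp7b1, an oxysterol hydroxylase gene, had 5.79 and 5.70 CPM in cKO and 4.32 in floxed, a log2 difference of 0.41 (SE 0.38) that did not pass (edgeR adjusted p = 1).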

How the data were processed

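RNA-seq of embryonic mouse cortex was read from 2 deposited tables, each with 1 cKO library and the same floxed library. The authors deposited raw counts per Ensembl gene, per the file headers. Beside them stood normalized values, which their values show to be CPM by the authors, with a count of 0 replaced by 0.5. Library totals were recovered from the ratio of count to CPM. The authors also deposited log2 folds and adjusted p-values, each for 1 library against another, and no source used here names their test. Bowtie2 2.2.3, TopHat2 2.0.12 and HTSeq 0.6.0 and the build mm9 are named in the submitters' processing notes, but 17844 of the 19968 genes shared by both files lay at the identical position in GENCODE M21 (GRCm38), so positions are called GRCm38. No source used here gives the counting options.

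The floxed counts were identical in both tables and were used once. Columns were assigned to groups by KO or WT in their names and in the sample titles. Which sample each column was is not known, and the other floxed sample was not analysed here. For the 19968 shared genes, edgeR 4.0.16 was run under R 4.3.3. Its default filter (minimum count 10) left 16725 genes, libraries were scaled to their totals, and the quasi-likelihood test with Benjamini-Hochberg adjustment ran over all genes with 1 residual degree of freedom. Ratios of 2 libraries carry exact 95% intervals (Clopper-Pearson on the share of counts, scipy 1.17.1), which cover counting error only, since reads carry no molecular identifiers. Alternatives were TMM scaling, DESeq2 1.42.0, no filter, a 1.5-fold call and each cKO library left out. The level of 10 CPM for the second background was chosen after the values were seen.

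The members and lists were chosen with earlier results of these data known. All 28 members are named. Of each further list, the 5 genes of at least 5 CPM in a library with the largest log2 ratio of mean cKO to floxed are named, and of marker lists a gene among the 2 most abundant only where a result turns on it (Tagln and Hbb-bt were picked with their values in view). Of the sterol list, 1 gene of the rule is not reported here. Shared sequence was counted as 50-base words of GENCODE M21 transcripts found in transcripts of another gene, on either strand.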

Additional observations from a re-analysis of the deposited data

How the results depend on the processing

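No member was called by edgeR with TMM scaling or without the filter, or by DESeq2, and in each of these fits 0 members had an unadjusted p under 0.05. Over all genes the count of 1 called gene, Ptx3, became 0 with TMM, 0 without the filter and 5 with DESeq2. Other scalings moved a fitted member difference by at most 0.02 (log2), and 3 members close to 0 changed sign with TMM (Fdft1, Tm7sf2 and Hsd17b7) and 4 with DESeq2 (these and Stard4). Taken alone, cKO 2 changed sign for Hmgcs1, Hsd17b7 and Srebf2 under either scaling, and cKO 1 for 0 members. The median over the synthesis genes was -0.02 for the mean of the cKO libraries, 0.00 with TMM, 0.01 with DESeq2 size factors and -0.01 without Fdps, and ranged from -0.08 to 0.03 when a cKO library was left out. With a call at 1.5-fold, 0 members passed in cKO 1 and 2 in cKO 2. Restricted to members of at least 10 CPM, an alternative chosen after seeing the data, 1 passed in cKO 2, since the low-count genes Fdps and Nr1h3 left the count. Without either cKO library the fit has no residual degrees of freedom, so those values carry no test. No paired analysis was possible because the tables hold only 1 floxed library. Counts limit Fdps and Nr1h3 most, whose largest library held 81 and 79 counts.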
